A study of Mus musculus with 6 samples.

Results

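Genes of cholesterol and fatty acid synthesis were followed through the mouse brain at 3 ages, in white matter and in gray matter. The list held 34 symbols: enzymes from acetyl-CoA to cholesterol, the regulators that sense sterols, carriers and transporters of cholesterol, and the fatty acid enzymes Fasn, Scd1 and Scd2. Rows with these symbols were taken from the 6 count matrices, and 33 of them were present among 19465 genes in all. Fdps was not analysed here. The 33 genes were 7 enzymes of the mevalonate arm, 11 enzymes of the sterol arm from squalene onwards, 5 regulators, 7 genes of transport, storage and turnover, and the 3 fatty acid genes. The 2 enzyme arms together held 18 genes.

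Coronal brain sections of formalin-fixed, paraffin-embedded (FFPE) tissue came from untreated male mice of the inbred strain C57BL/6J, with 2 sections per age that the labels give as biological replicates. The P21 mice (postnatal day 21) were bred in house from Jackson Laboratory parents, the adult mice (12 to 15 weeks in the sample labels) came from Jackson Laboratory, and the aged mice (28 months) came from the National Institute on Aging. The study's methods, in contrast, name only Jackson Laboratory as the source. RNA was captured with the 10x Genomics Visium mouse probe panel, in which pairs of probes are ligated on each transcript and counted as unique molecular identifiers (UMIs) in spots that each cover several cells. Sections of P21 and adult brain went straight onto Visium v1 slides. Aged sections were transferred by the CytAssist instrument onto v2 slides, so age and slide chemistry cannot be told apart in any aged vs. adult comparison. The source of the mice also differed with age, so age and source cannot be told apart in any comparison of ages, P21 vs. adult included.

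Cholesterol in the brain is made locally, because the lipoproteins that carry it in blood do not pass the blood-brain barrier. Myelin, the membrane that oligodendrocytes wrap around axons, is rich in cholesterol, and much of it is laid down in white matter in the weeks after birth. The mevalonate arm joins acetyl units into isoprene units and then squalene, and the sterol arm closes squalene into lanosterol and trims it to cholesterol. SREBP-2 (Srebf2) and SREBP-1 (Srebf1) turn on these enzymes and the fatty acid enzymes when Scap escorts them out of the endoplasmic reticulum. The Insig proteins hold Scap back when sterols are plentiful.

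Promoters of 4 enzymes are shown as examples. These enzymes were all higher in P21 than in adult white matter, and their windows lie wholly before the transcribed gene. Mvk and Sc5d also met both conditions and are not shown. Each line holds the 250 bases before the annotated start in RefSeq (GRCm38.p6), 5′ to 3′ on the strand of the gene. Capitals mark 3 motifs searched on both strands, which did not overlap in these windows: TCACNCCAC (a sterol regulatory element, bound by SREBP), CCAAT (the NF-Y box) and GGGCGG (the Sp1 box).
Hmgcs1 (chr13:119690101-119690350, + strand): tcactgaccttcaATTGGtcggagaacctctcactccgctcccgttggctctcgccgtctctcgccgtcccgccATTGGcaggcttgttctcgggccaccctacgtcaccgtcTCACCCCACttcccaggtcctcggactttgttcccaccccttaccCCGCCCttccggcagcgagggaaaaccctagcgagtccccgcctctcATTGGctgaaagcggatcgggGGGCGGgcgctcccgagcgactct
Mvd (chr8:122443423-122443672, − strand): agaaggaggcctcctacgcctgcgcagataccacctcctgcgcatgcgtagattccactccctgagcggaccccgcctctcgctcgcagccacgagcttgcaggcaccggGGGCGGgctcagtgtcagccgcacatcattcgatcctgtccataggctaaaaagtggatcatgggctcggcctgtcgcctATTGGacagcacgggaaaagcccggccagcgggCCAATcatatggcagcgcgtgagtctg
Nsdhl (chrX:72918271-72918520, + strand): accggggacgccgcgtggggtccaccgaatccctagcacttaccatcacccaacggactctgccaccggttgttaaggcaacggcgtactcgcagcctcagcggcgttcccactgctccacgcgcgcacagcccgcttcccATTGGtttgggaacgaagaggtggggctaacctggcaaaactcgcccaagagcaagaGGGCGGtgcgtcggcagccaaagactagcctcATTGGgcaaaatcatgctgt
Ebp (chrX:8193513-8193762, − strand): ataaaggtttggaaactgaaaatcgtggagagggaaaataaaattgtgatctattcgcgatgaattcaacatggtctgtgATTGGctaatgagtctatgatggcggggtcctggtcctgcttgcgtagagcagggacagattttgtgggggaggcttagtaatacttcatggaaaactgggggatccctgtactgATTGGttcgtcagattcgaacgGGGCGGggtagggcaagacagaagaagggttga

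RefSeq windows were at hand for 26 of the 33 genes, 16 of them enzymes of the mevalonate and sterol arms. A gene with several windows was counted once, when any of them held the motif. The background is every gene with a window, not limited to genes detected in these sections, so it is not matched to the genes described here. CCAAT lay in a window of 15 of the 16 enzymes and of 23 of the 26 genes, against 37.5% of 27025 genes. GGGCGG lay in 14 of the 16 and in 22 of the 26, against 35.4% of all genes. TCACNCCAC lay in 1 of the 26, in Hmgcs1, 137 bases before the start, and in 1.22% of all genes. A match is a match of letters and says nothing of binding.

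A filter of 250 genes and 500 UMIs per spot left 20336 spots, 12074.5 to 25535 median UMIs per spot and 42422997 to 106783660 UMIs per section. Spots were clustered on the counts without the genes described here, and clusters were named by marker panels as fiber tracts (FT), cortex (CTX), striatum (STR), hypothalamus (HY), thalamus (TH), hippocampus (HP) and smaller zones. The FT, the white matter of the section, held 2099 spots (290 and 304 at P21, 322 and 380 in adults, 427 and 376 in aged mice), and the 5 gray regions held 14441. The label was borne out by its markers, since 11 of 11 structural myelin genes were called higher in the FT than in gray matter at each age. Levels are given as CPM (UMIs of a gene, scaled to the TMM-normalized UMIs of its region). They are compared between regions and ages only, for one gene or for the same genes summed. A gene was called differentially expressed by edgeR's quasi-likelihood test when its Benjamini-Hochberg adjusted p was under 0.05 and it changed by more than 1.5-fold. Each of the 33 genes had UMIs in 10% or more of the spots, and the lowest UMI sum of one in the FT was 22, for Idi1. A spot mixes cells, so that fewer cells of a type and less RNA per cell cannot be told apart in any level below.

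White matter at P21 held the highest summed level of the mevalonate and sterol enzymes. The 18 enzymes of the mevalonate and sterol arms summed to 2824 and 3499 CPM in the P21 FT, 1139 and 1169.9 in the adult FT and 867 and 895 in the aged FT. In gray matter, taken as the equally weighted mean of 5 regions, the same sum was 1438 and 1445 CPM at P21, 947 and 994 in adults and 902 and 901 at 28 months. Both P21 sections thus lay above both adult sections in both tissues, and the white matter of aged mice lay below that of adults, while in gray matter the aged sections lay just under the adult pair. The sum leans on the genes that the probes count most, Hmgcs1 above all.

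White matter was first compared with gray matter within each section, at each age. At P21, 21 of 33 genes were called higher in the FT and 0 lower, where 9.55% of the 11338 genes tested were called higher and 5.19% lower. DESeq2 gave the same 2 counts, and 3 genes were lower at an unadjusted p under 0.05 in edgeR. The 21 were 4 of 7 mevalonate enzymes, 11 of 11 sterol enzymes, Insig1, Npc1, Npc2 and the 3 fatty acid genes. In adults the counts were 5 higher and 1 lower, with a background of 9.95% and 4.73%, and in aged mice 9 higher and 1 lower, with a background of 19.2% and 19%. Of the 18 mevalonate and sterol enzymes, 15 were called higher in white matter at P21, against 1 in adults and 1 in aged mice, which was Ebp at both ages. Without P21 section 2, Fdft1 (0.55) and Fasn (0.53) were not called at P21, and without aged section 1, Soat1 (0.54) was not called in aged mice. The median log2 difference of the 33 genes (FT over gray) was 0.84 at P21, 0.27 in adults and 0.04 at 28 months, beside −0.05, −0.07 and −0.06 over all genes tested.

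Whether the excess in white matter itself changed with age was asked by the interaction in the same model, which holds each section as a block. From adult to P21 it was called larger for 11 of 33 genes and smaller for 0, with a background of 1.01% and 0.723% of 11338 genes (2 were smaller at an unadjusted p under 0.05, and DESeq2 called 12 larger and 0 smaller). The 11 were all mevalonate or sterol enzymes: Acat2, Hmgcs1, Mvd, Sqle, Lss, Cyp51, Tm7sf2, Msmo1, Nsdhl, Hsd17b7 and Ebp. The median over the 18 enzymes was 0.68 on the log2 scale, and 0.01 over all genes. The 11 structural myelin genes had a median interaction of −0.04, and 0 of 11 were called by edgeR or by DESeq2 (1 at an unadjusted p under 0.05 in edgeR). Leaving out P21 section 2 left 7 of the 11 called and took Sqle, Msmo1, Nsdhl and Ebp out (log2 0.56, 0.54, 0.58 and 0.56), and keeping only the smaller of the 2 FT clusters also left 7. Without adult section 2 the calls of Sqle, Hsd17b7 and Ebp were lost (0.70, 0.72 and 0.67), and without adult section 1 that of Ebp (0.53).

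Then each region was compared between ages over the 6 sections. In the FT at P21 vs. adult, 16 of 33 genes were called higher and 2 lower, with a background of 5.41% and 4.02% of 11114 genes tested. The enzymes made up 14 of the 16, out of 18, with a median log2 fold change of 1.17 against −0.01 over all genes. In the FT at aged vs. adult, 7 were called higher and 8 lower of 32 tested, with a background of 12.6% and 14.4% of 11066 genes. Here the enzymes had 1 call up and 7 down of 17 tested, and a median of −0.46 against −0.04. Values for the members follow by role.

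In the mevalonate arm, Hmgcs1, which condenses acetyl units into HMG-CoA, changed most. It stood at 860.2 and 1167 CPM in the P21 FT, 206 and 209 in the adult FT and 119 and 136 in the aged FT. In gray matter it stood at 323 and 334, 160.4 and 162, and 124 and 135 CPM. The ages did not overlap in either tissue, and the P21 sections were highest in both. It was 4.80-fold higher in P21 than in adult FT (log2 fold change 2.26, SE 0.12, edgeR adjusted p = 1.17e-10) and 1.63-fold lower in aged FT (log2 fold change −0.71, SE 0.12, adjusted p = 7.27e-05). The excess of white over gray matter went from 3.08-fold at P21 to 1.30-fold in adults and 1.03-fold in aged mice. The first passed the test (adjusted p = 3.52e-17), the adult one missed the 1.5-fold limit, and the aged one was not distinguishable from 0 (adjusted p = 0.671).

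Mvd, the decarboxylase that makes the first isoprene unit, stood at 78.7 and 103 CPM in the P21 FT, 22.7 and 21.1 in the adult FT and 18.0 and 17.2 in the aged FT. The gray mean was 39.6 and 39.5, 22.1 and 21.0, and 19.8 and 18.98 CPM. White matter was well above gray matter in both P21 sections, and the tissues were close in the adult and aged sections. P21 vs. adult in the FT gave a log2 fold change of 2.01 (SE 0.14, adjusted p = 2.33e-09), and aged vs. adult one of −0.32 (adjusted p = 0.113).

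Acat2, a thiolase at the entry of the arm, stood at 109 and 106 CPM in the P21 FT, 38.2 and 40.5 in the adult FT and 46.5 and 50.2 in the aged FT. Its gray mean was 59.7 and 54.1, 42.2 and 44.1, and 48.3 and 55.3 CPM. The P21 FT stood apart from every other value, and adult and aged white matter lay at or below gray matter. The log2 fold change at P21 was 1.43 (SE 0.10, adjusted p = 3.17e-09).

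Mvk, mevalonate kinase, stood at 80.2 and 97.7, 40.4 and 41.7, and 22.4 and 30.3 CPM in the FT of P21, adult and aged sections. It fell at each step of age without overlap, by edgeR from P21 to adult (log2 fold change at P21 1.08, SE 0.13, adjusted p = 3.36e-06) and from adult to aged (−0.64, SE 0.15, adjusted p = 0.00119). Without aged section 1 the second value was −0.45 and was no longer called. Pmvk, Idi1 and Ggps1, the last a side branch to geranylgeranyl diphosphate, were not called in the FT at either age, with log2 values of 0.48, 0.48 and −0.08 at P21 vs. adult. Pmvk and Ggps1 had −0.46 and −0.05 at aged vs. adult, and Idi1, at 4.44 to 6.83 CPM, was not tested there.

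In the sterol arm 10 of 11 enzymes were called higher in the P21 FT, the exception being Fdft1 (log2 fold change 0.51, edgeR adjusted p = 0.00911), which makes squalene. Cyp51, the lanosterol demethylase, stood at 284 and 352 CPM in the P21 FT, 88.4 and 86.6 in the adult FT and 60.1 and 60.3 in the aged FT. In gray matter it had 121 and 129, 69.6 and 70.4, and 71.5 and 62.9 CPM. White matter was above gray matter at P21 and in adults and below it in both aged sections. The P21 change was 3.56-fold (log2 1.83, SE 0.10, adjusted p = 1.78e-10), and the fall in aged FT, −0.54 on the log2 scale (adjusted p = 0.000399), missed the fold limit.

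Lss, which closes the ring to lanosterol, stood at 105 and 138 CPM in the P21 FT, 32.6 and 37.8 in the adult FT and 33.7 and 34.6 in the aged FT. The aged values lay inside the adult range, and both lay far under P21 (log2 fold change at P21 1.74, SE 0.13, adjusted p = 5.73e-09). Sqle, squalene epoxidase, stood at 246 and 299.7, 92.7 and 103, and 61.1 and 64.8 CPM in the FT of the 3 ages. It rose at P21 (1.45, SE 0.10, adjusted p = 2.56e-09) and fell in aged mice (−0.64, SE 0.11, adjusted p = 6.73e-05), where it was −0.58 and no longer called without adult section 2.

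Tm7sf2, a sterol reductase, stood at 70.4 and 82.2 CPM in the P21 FT, 34.6 and 31.0 in the adult FT and 14.8 and 17.6 in the aged FT. Gray matter ran from 45.1 and 44.6 through 32.3 and 35.5 to 20.8 and 22.3 CPM. Both tissues stepped down at each age without overlap, with white matter above gray at P21 and below it in aged mice. The log2 fold change was 1.18 at P21 (SE 0.12, adjusted p = 5.42e-07) and −1.02 in aged FT (SE 0.15, adjusted p = 1.32e-05). Hsd17b7, a ketosteroid reductase of the same arm, stood at 95.7 and 87.8, 38.0 and 35.8, and 18.2 and 22.6 CPM in the FT. Its steps likewise did not overlap, at 1.30 (SE 0.11, adjusted p = 5.72e-08) and −0.86 (SE 0.14, adjusted p = 3.27e-05).

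Ebp, a sterol isomerase, took another course with age. It stood at 77.2 and 89.0 CPM in the P21 FT, 33.95 and 33.8 in the adult FT and 66.3 and 61.6 in the aged FT, beside 32.3 and 33.6, 21.9 and 19.8, and 34.4 and 35.8 CPM in gray matter. Adult sections were the lowest in both tissues, and white matter was above gray in all 6 sections. Its log2 fold change in the FT was 1.26 at P21 (SE 0.11, adjusted p = 7.41e-08) and 0.91 in aged mice (SE 0.11, adjusted p = 2.07e-06), and it was the 1 enzyme called up in aged FT. Nsdhl (1.15), Msmo1 (1.01), Dhcr7 (0.96) and Sc5d (0.62) were also called up at P21, the last not without adult section 2 (0.56). Nsdhl (−0.75) and Dhcr7 (−0.65) were called down in aged FT. Dhcr7 carries out the last reduction in a branch of the pathway.

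Counted without a test, both P21 sections lay above both adult sections in the FT for 17 of 18 enzymes, Ggps1 being the exception. Both aged sections lay below both adult sections for 12 of 18 and above for 2. The same was not counted over all genes, so these counts have no background to be set against. P21 section 2, the shallower of the pair, lay above section 1 for 15 of 18 enzymes in the FT and for 9 of 18 in gray matter. Summed enzyme CPM were 3.15% and 3.26% of the summed structural myelin CPM in the P21 FT, 2.42% and 2.58% in the adult FT, and 1.59% and 1.70% in the aged FT. The sums rest on different probes, so this share is no measure of enzyme RNA per myelin RNA. Its step from adult to aged also crosses the change of slide chemistry.

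The regulators moved little at P21, when the enzymes moved most. None of the 5 was called in the FT at P21 vs. adult by edgeR (log2 values from −0.27 to 0.41, with 2 of 5, Insig1 and Insig2, at an unadjusted p under 0.05, and 0 called by DESeq2), while Srebf1 and Insig2 were called up in aged FT. Srebf2, whose protein is the main driver of sterol enzymes, stood at 171 and 169 CPM in the P21 FT, 171 and 161 in the adult FT and 126 and 129 in the aged FT. P21 and adult values overlapped, and the aged pair lay below both (log2 fold change −0.38, SE 0.08, adjusted p = 0.000725, under the fold limit). Scap stood at 72.7 and 72.0, 66.4 and 68.8, and 76.4 and 84.9 CPM, a span smaller than the fold limit at either age.

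Srebf1, whose protein drives fatty acid enzymes above all, stood at 21.8 and 28.2 CPM in the P21 FT, 27.7 and 28.6 in the adult FT and 60.3 and 49.6 in the aged FT. In gray matter it had 19.003 and 19.96, 22.3 and 21.6, and 28.6 and 27.7 CPM. Aged white matter was set apart from all other values, with a log2 fold change of 0.96 (SE 0.13, adjusted p = 8.4e-06). The excess over gray matter was larger in aged than in adult sections by 0.62 on the log2 scale (SE 0.12, adjusted p = 0.000259), a call that was lost without adult section 1 (0.57) or aged section 1 (0.50).

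Insig1 stood at 173 and 180.3 CPM in the P21 FT, 128 and 134 in the adult FT and 155 and 139 in the aged FT, and was above gray matter in all 6 sections. P21 sections were the highest, but the change to adult (log2 0.41, adjusted p = 0.00176) missed the fold limit. Insig2 stood at 46.5 and 51.2, 54.0 and 60.8, and 113 and 105 CPM in the FT, and at 58.5 and 65.4, 71.4 and 76.9, and 138 and 122 CPM in gray matter. It was lower in white than in gray matter in each section, and in both tissues the aged sections stood well clear of the younger ones. Its log2 fold change in aged FT was 0.92 (SE 0.10, adjusted p = 3.13e-07).

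Among the genes of transport and turnover, both genes of lysosomal export stood above gray matter throughout. Npc1 and Npc2, which together move cholesterol out of lysosomes, were called higher in the FT than in gray matter at all 3 ages. Npc1 stood at 179.9 and 211 CPM in the P21 FT, 213 and 227 in the adult FT and 293 and 259.6 in the aged FT, against 74.3 to 89.7 CPM in gray matter. White matter never overlapped gray, and its excess was 2.63-fold, 2.67-fold and 3.21-fold from P21 to aged. Npc2 stood at 479.8 and 576, 261 and 290.3, and 421 and 446 CPM in the FT, and at 199 and 193, 136 and 136, and 117 and 130.2 CPM in gray matter. Adult white matter was its lowest, with log2 fold changes of 0.91 at P21 (SE 0.10, adjusted p = 6.72e-07) and 0.65 in aged mice (SE 0.10, adjusted p = 1.45e-05). The second was 0.55 and not called without adult section 1. Npc2 is also well expressed by microglia, whose 10 markers summed to 681 and 739.6 CPM in the P21 FT, 789 and 892 in the adult FT and 2649 and 2676 in the aged FT. Their part in this result was not tested.

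Abcg1, an exporter of cholesterol to lipoproteins, stood at 34.1 and 40.0 CPM in the P21 FT, 55.2 and 61.4 in the adult FT and 109 and 99.6 in the aged FT. Its gray mean was 33.9 and 39.0, 46.6 and 43.5, and 56.7 and 50.1 CPM. It climbed with age without overlap in the FT, from a level equal to gray matter at P21 to 2.01-fold above it in aged mice. The log2 fold change was −0.70 at P21 (SE 0.12, adjusted p = 0.000178) and 0.83 in aged mice (SE 0.10, adjusted p = 1.89e-06). Soat1, which esterifies cholesterol for storage, stood at 21.7 and 17.1, 24.4 and 22.9, and 43.3 and 38.7 CPM in the FT. The aged pair was the highest, at 1.72-fold above adult (log2 0.78, SE 0.13, adjusted p = 7.42e-05).

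Cyp46a1, the neuronal hydroxylase that clears cholesterol from the brain, was the 1 gene called lower in white matter, in adult and in aged sections. It stood at 64.0 and 75.1 CPM in the P21 FT, 49.9 and 52.6 in the adult FT and 41.7 and 40.0 in the aged FT, against 105 and 109.8, 93.0 and 92.9, and 132 and 101 CPM in gray matter. No FT value reached a gray mean, though at P21 the HY alone, by its mean over sections, lay below the FT. By edgeR the log2 differences from the gray mean were −0.58 at P21 (adjusted p = 1.5e-06, under the fold limit), −0.81 in adults (SE 0.08, adjusted p = 1.05e-08) and −1.37 in aged mice (SE 0.09, adjusted p = 4.06e-13). Neuron markers summed to 4705 and 4462 CPM in the P21 FT, 5034 and 4807 in the adult FT and 2761 and 2735 in the aged FT. From adult to aged they moved in the direction of Cyp46a1, and from P21 to adult they did not. Their part was not tested. Stard4, a carrier of sterols between membranes, stood at 28.8 and 32.9, 20.03 and 18.1, and 9.22 and 13.9 CPM in the FT, a fall at each age without overlap. Its calls (0.65 at P21, SE 0.16, adjusted p = 0.00643, and −0.72 in aged mice, SE 0.19, adjusted p = 0.00371) were both lost without 1 section, the first without P21 section 2 (0.58) or adult section 2 (0.58), the second without aged section 1 (−0.47), and DESeq2 did not make the first. Lrp1, a lipoprotein receptor, was not called in any of these comparisons.

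The desaturases, which put double bonds into fatty acids, were higher in white than in gray matter at every age, and Scd1 moved with age in the opposite direction to most sterol enzymes. Scd1 stood at 76.8 and 93.7 CPM in the P21 FT, 157 and 170.4 in the adult FT and 286 and 286 in the aged FT, and gray matter at 45.1 and 42.4, 72.1 and 68.1, and 94.5 and 97.5 CPM. It climbed with age in both tissues without overlap, with FT log2 fold changes of −0.98 at P21 (SE 0.10, adjusted p = 4.04e-07) and 0.80 in aged mice (SE 0.09, adjusted p = 6.83e-07). Scd2 stood at 2033 and 2399, 2117 and 2135, and 2537 and 2671 CPM in the FT, and at 939 to 1005 CPM in gray matter. The P21 sections enclosed the adult ones (log2 fold change 0.04), and white matter was more than 2-fold above gray in each section. Fasn, fatty acid synthase, went from 266 and 290.1 CPM in the P21 FT to 181 and 189 in adults, a log2 fold change of 0.56 (adjusted p = 5.89e-05) that missed the fold limit. Scd1 and Scd2 are close paralogs, and whether a probe of one also captured the other was not tested.

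Cell type markers in the FT moved with these ages too, and are given for the whole lists. Structural myelin summed to 89771 and 107205 CPM in the P21 FT, 46984 and 45394 in the adult FT and 54601 and 52653 in the aged FT, with 8 of 11 genes called up and 1 down at P21 and 1 up and 1 down in aged mice. Newly formed oligodendrocyte markers summed to 1283 and 1533, 885 and 837, and 1362 and 1056 CPM, with 7 of 9 called up at P21, and 3 up and 2 down in aged mice. Oligodendrocyte precursor markers had 5 of 10 called up at P21 and 1 down in aged mice. In aged FT 8 of 10 microglia markers and 5 of 10 astrocyte markers were called up, and 5 of 10 neuron markers down, and at P21 2 microglia markers were called down. Of 9 endothelial markers 1 was up at P21, and 2 were up and 4 down in aged mice. Of 7 markers of meninges and vessels 3 were up and 2 down at P21 and 1 was down in aged mice, where 2 of 4 choroid plexus markers were also down. All 3 erythrocyte markers tested were up at P21 and 1 in aged mice. FT spots held as many UMIs as gray spots at P21 and in adults (ratios of medians from 0.910 to 1.07), but 0.523 and 0.466 times as many in the aged sections. The part of these shifts in the members' changes was not tested.

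Distance from the core of the tracts was used next, with plain CPM of the 18 enzymes in bands of spots from the inner FT out to gray spots 4 or more steps away. FT core spots over the farthest gray spots gave 2.29 and 2.63 at P21, 1.26 and 1.27 in adult sections and 0.828 and 0.843 at 28 months. FT edge spots gave 1.86 and 2.08, 1.18 and 1.14, and 0.957 and 0.973. The enzymes were therefore most concentrated in the core at P21, and least plentiful there in aged mice. Hmgcs1 alone had core ratios of 3.43 and 4.09, 1.38 and 1.45, and 0.732 and 0.816. Structural myelin, in the same bands, went the other way with age, from 5.88 and 6.36 at P21 to 6.99 and 6.58 in adults and 13.1 and 11.4 at 28 months. Core ratios for Abcg1 were 1.05 and 0.873, 1.41 and 1.61, and 2.36 and 2.75, and those for Npc2 were lowest in adults.

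Gray matter was tested region by region, and P21 carried higher levels there as well. Over the CTX, HP, TH, HY and STR, 161 pairs of gene and region were tested at P21 vs. adult, of which 36 were called higher and 2 lower. The TH had 14 called genes (7.06% of all genes tested there), the HP 10 (6.79%), the STR 8 (3.94%), the HY 5 (3.85%) and the CTX 1 (5.47%), the percentages being the background in either direction. Mvd was called up in 5 of 5 gray regions, Hmgcs1 and Cyp51 in 4, and Sqle and Lss in 3. The pairs called down were Scd1 in the TH and the HY. Structural myelin was also higher in gray matter at P21, with a gray mean of 22562.5 and 21241 CPM against 10612 and 9770 in adults. Its part in the gray changes was not tested.

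In the TH, Hmgcs1 stood at 388 and 424 CPM at P21, 143 and 146 in adults and 119.7 and 132 at 28 months (P21 vs. adult log2 fold change 1.48, SE 0.09, adjusted p = 3.04e-06). In the CTX it stood at 282 and 294, 207 and 194, and 175 and 182 CPM. The ages were again apart in both regions, but the step in the CTX (0.51, SE 0.08, adjusted p = 0.000466) missed the fold limit. In the HP, Mvd stood at 41.4 and 39.8 CPM at P21, 17.4 and 18.2 in adults and 21.4 and 18.0 at 28 months (P21 vs. adult 1.20, SE 0.14, adjusted p = 0.000197). An F test over the 6 regions found that the step from P21 to adult differed between regions for 21 of 33 genes at an adjusted p under 0.05, against 13.2% of all genes.

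At aged vs. adult, 165 pairs were tested in gray matter, of which 13 were called higher and 9 lower. By region 6 genes were called in the CTX and 8 in the STR, 3 each in the HP and the HY, and 2 in the TH, with a background of 10.5% in the CTX, 14.2% in the STR, 11.7% in both the HP and the HY, and 13.8% in the TH. Insig2 was called up in 5 of 5 regions, from 0.68 in the HP to 0.93 in the STR on the log2 scale, as it was in the FT. In the TH it stood at 64.8 and 69.5 CPM at P21, 79.5 and 87.5 in adults and 177 and 132 at 28 months. Mvk was called down in 4 regions and Tm7sf2 in 3. Ebp was called up in 3 (CTX, HY and STR), and Fdft1 in the CTX and the HY. A change of like size in each region and a change of slide chemistry that acts on a probe everywhere cannot be told apart here. The F test of unequal change between regions called 18 of 33 genes from adult to aged, against 48.2% of all genes.

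**Figure D1:**
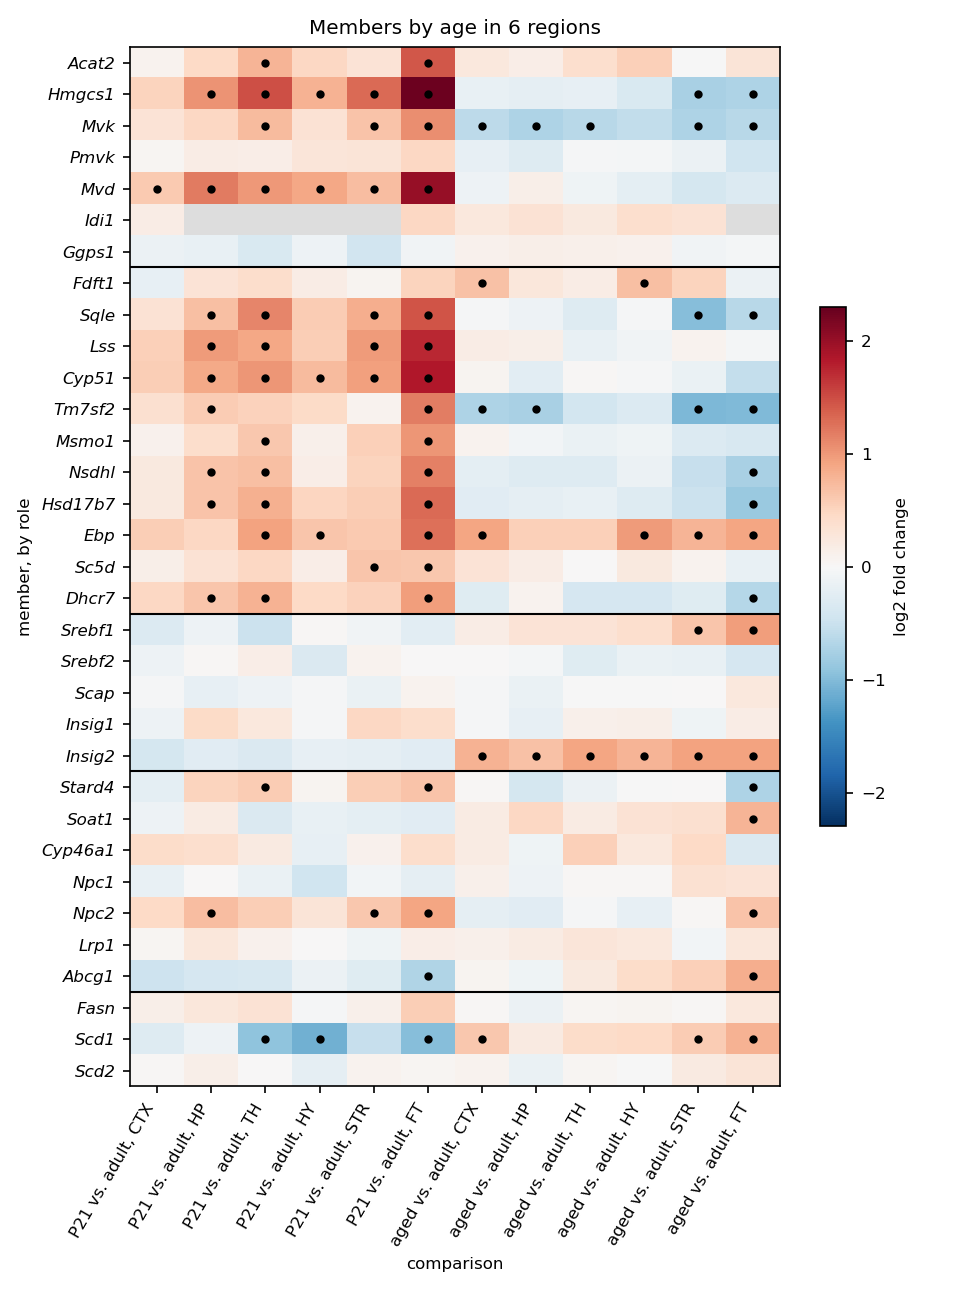
Log2 fold change of each gene (rows, by role) in 6 regions at P21 vs. adult and at aged vs. adult, with a dot where the gene was called and gray cells where it was not tested. The FT column at P21 holds the deepest red among the enzymes, with Hmgcs1 at 2.26, and Insig2 carries a dot in all 6 aged columns.

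In the interaction of the aged vs. adult step with white matter, 3 of 33 genes were called higher and 1 lower by edgeR, with a background of 8.76% and 7.4%. These were Npc2 (0.82, SE 0.09, adjusted p = 9.91e-08), Abcg1 (0.63, SE 0.10, adjusted p = 1.25e-05), Srebf1 (above) and Stard4 (−0.59, SE 0.23, adjusted p = 0.0417). None of the 18 enzymes was called by edgeR or by DESeq2 (11 were lower at an unadjusted p under 0.05 in edgeR), with a median of −0.30 against 0.0037 over all genes, and 11 of 33 genes were lower with no minimum fold change. Structural myelin moved the other way, with 10 of 11 genes called larger in their excess. The Stard4 call was lost when any of 4 sections was left out (either P21 section, adult section 1 or aged section 1, with values from −0.58 to −0.30), and the Abcg1 call without adult section 1 (0.50). DESeq2 called 3 genes higher and 0 lower, and Stard4 was not among them.

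Ranked by level, the FT was the highest of the 6 regions for 25 of 33 genes at P21, 18 in adults and 13 at 28 months. Among sterol enzymes the numbers were 11, 8 and 2 of 11. For 7 genes (Lss, Ebp, Insig1, Npc1, Npc2, Scd1 and Scd2) the FT came first in each of the 6 sections, and 14 genes lay above the gray mean in each section. Fasn, Scd1 and Scd2 had the FT first at each age. Ranks were not counted over all genes, so whether these numbers exceed the share for any gene was not tested.

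Across finer zones, the 19 clusters, the summed enzymes were ordered by plain CPM. At P21 the 2 FT clusters ranked first and second, the larger (led by C4b, Klk6 and C3) at 3085 and 3859 CPM and the smaller (led by Thbs4, Opalin and Enpp6) at 2421 and 2792. The reticular thalamus cluster (led by Six3, Spp1 and Frem3), which is crossed by many myelinated axons, held rank 3 at 1926 and 2045. A hippocampal cluster led by Dsp and C1ql2, markers of granule cells of the dentate gyrus, came last at 1033 and 949.8. In adults the larger FT cluster still came first, at 1219 and 1244 CPM, but a deep cortical cluster led by Ccn2, Nr4a2 and Nxph3 followed at 1158 and 1248, and their sections overlapped. In aged mice that cortical cluster came first at 1216 and 1229.6, and the larger FT cluster held rank 12 at 801 and 867. The larger FT cluster gained spots in aged sections (145 and 131 at P21, 134 and 193 in adults, 338 and 313 in aged mice) while the smaller lost them (145 and 173, 188 and 187, 89 and 63), so that the aged FT is weighted towards the larger.

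**Figure D2:**
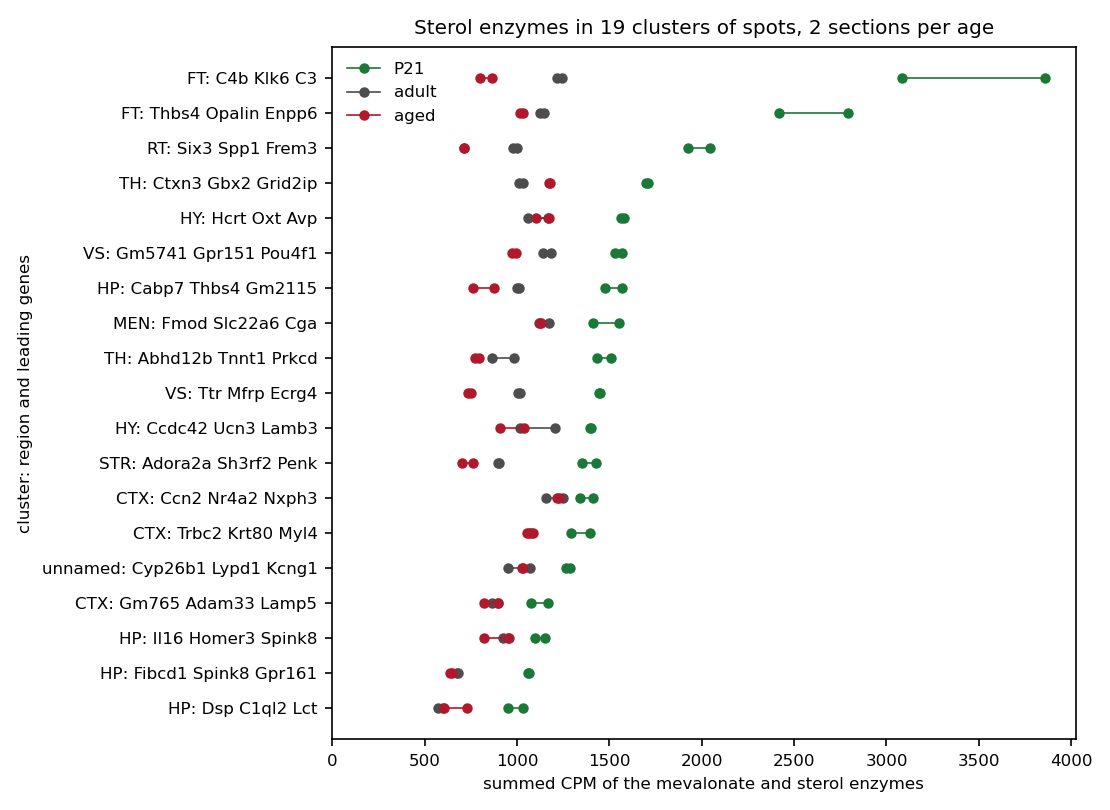
Plain CPM of the 18 summed enzymes in the 19 clusters of spots (by region and leading genes), one point per section and colours by age. P21 points of both FT clusters, from 2421 to 3859 CPM, exceed those of every other cluster, and the aged points of all clusters lie between 603 and 1229.6 CPM.

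Spatial pattern within a section was read from the deposited Moran's I scores, which measure how alike neighbouring spots are for a gene. The median over the 18 enzymes was 0.0618 and 0.0514 at P21, 0.0181 and 0.0242 in adult sections and 0.0455 and 0.0486 at 28 months. Among genes detected in 10% of spots, whose own median ran from 0.0200 to 0.0595 over the sections, the enzymes had a median percentile of 70.2 and 74.6 at P21, 43.5 and 53.0 in adult sections and 46.9 and 43.8 at 28 months. Hmgcs1 had scores of 0.361 and 0.321 at P21, 0.0874 and 0.1003 in adult sections and 0.160 and 0.233 at 28 months, so the P21 sections were the most patterned. Scd2 kept high scores throughout, from 0.378 to 0.587.

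Over whole sections, where white matter is a small part, Hmgcs1 and Mvd led. At P21 vs. adult 7 genes were called up and 1 down of 32 tested, with a background of 5.12% in either direction: Hmgcs1 (log2 1.11), Mvd (0.97), Cyp51 (0.94), Lss (0.85), Sqle (0.72), Ebp (0.69) and Dhcr7 (0.61) up, and Scd1 (−0.74) down. At aged vs. adult Insig2 (0.73) and Ebp (0.66) were called up and Mvk (−0.76) and Tm7sf2 (−0.75) down, with a background of 8.99%. Hmgcs1 stood at 368 and 415 CPM in whole P21 sections, 181 and 183 in adult sections and 137 and 146 in aged sections, with no overlap.

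Other genes of the same pathways, from a list of 30 of which 28 were in the files and 26 were tested, were counted in the same comparisons. In white against gray matter 10 were called up and 0 down at P21 (9.55% and 5.19% of all genes). The counts were 5 and 0 in adults (9.95% and 4.73%) and 7 and 2 at 28 months (19.2% and 19%). The zeros stood in DESeq2 as well, with 3 and 4 genes lower at an unadjusted p under 0.05 in edgeR at P21 and in adults. In the FT at P21 vs. adult 7 were called up and 0 down by edgeR (5.41% and 4.02% of all genes), with a median of 0.09 (4 were lower at an unadjusted p under 0.05, and DESeq2 gave the same 2 counts), and at aged vs. adult 3 were up and 1 down, no larger a share than the 12.6% and 14.4% over all genes. Elovl1 and Elovl7, which lengthen fatty acids, had log2 fold changes of 1.77 (adjusted p = 1.17e-10) and 1.03 (adjusted p = 1.19e-06) at P21. Lpin1, which makes diacylglycerol, had the largest rise of these genes in aged FT, at 1.01 (SE 0.13, adjusted p = 4.12e-06).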

How the data were processed

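The authors hybridized FFPE sections with 10x Genomics mouse probes and counted reads against mm10 with Space Ranger, in version 2.0.0 (P21 and adult) or 3.1.1 (aged) per the file headers, while the submitters' processing notes name 2.1.0. The deposited counts are whole UMIs per gene and spot, without normalization. The Moran's I scores came from the deposited spatial tables, one score for each gene. Their p-values and scaled signal were not used here.

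The study's filter of 250 genes and 500 UMIs per spot was applied. Regions were rebuilt with scanpy 1.11.5: 3000 variable genes without 61 pathway genes, values scaled within each section, 10 principal components, 20 neighbours and Leiden clustering at resolution 0.6, which gave 19 clusters. Clusters were named from marker panels, and 1 cluster of 2019 spots (9.93%) stayed unnamed. Doublets do not apply to spots.

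UMI sums of each region in each section were fitted with edgeR 4.0.16 (TMM, glmQLFit, glmQLFTest). White against gray matter and the interactions came from 36 sums with section as a block and region-by-age terms. Age effects came from 6 sums per region with age as the only term. Genes tested passed filterByExpr and the study's detection limits, 10% of all spots and, in age tests, more than 10% of a region's spots in one of both ages. Standard errors are the fold change over the square root of F. Adjusted p-values are Benjamini-Hochberg values over all genes tested. The fits were tested on simulated data. The study's Wilcoxon test over spots was not used, since spots of a section are not replicates. Each age has 2 sections. In the age fits, p-values rest on the spread between sections of the same age, pooled over the ages. In the fits with section as a block, they rest on how region differences vary between sections, pooled over ages and regions.

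Values are named by section for the members with the largest called changes, at most 6 per role, and for the 5 regulators. Of other pathway genes the 6 with the largest FT changes were chosen, of which those named are Elovl1, Elovl7 and Lpin1 and the others are not reported here. Members, lists and alternatives were chosen with earlier results of these data known. Alternatives were DESeq2 1.42.0, plain CPM, other filters, thinning, other white matter definitions, each section left out, and the replicate number as a block. Same-numbered sections did not deviate together throughout (correlations of 0.15 for P21 and adult, −0.41 for adult and aged and −0.14 for P21 and aged). Promoters are RefSeq windows and gene spans are from GENCODE vM21 (GRCm38).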

Additional observations from a re-analysis of the deposited data

Results flagged for a closer look

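For 11 enzymes the log2 excess of white over gray matter differed between P21 and adult sections by the interaction term (edgeR, 2 sections per age), where 1.01% of all genes were called larger and 0.723% smaller. The excess was larger at P21 by 1.03 for Acat2, 1.24 for Hmgcs1, 1.13 for Mvd, 0.74 for Sqle, 0.96 for Lss, 1.02 for Cyp51, 0.79 for Tm7sf2, 0.66 for Msmo1, 0.71 for Nsdhl, 0.76 for Hsd17b7 and 0.63 for Ebp. The calls of Sqle, Msmo1, Nsdhl, Hsd17b7 and Ebp, 5 of the 11, were lost without 1 section. Of the 33 genes, 4 had an excess that differed between aged and adult sections by the same kind of term, at 0.62 for Srebf1, −0.59 for Stard4, 0.82 for Npc2 and 0.63 for Abcg1. Over all genes 8.76% were called larger and 7.4% smaller there, so that 4 of 33 is no larger a share. The calls of Srebf1, Stard4 and Abcg1 were lost without 1 section, and DESeq2 did not call Stard4. With 2 sections per age, no section was examined for standing apart from its group.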

How the results depend on the processing

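For the calls in comparisons of the FT, 1563 values of called genes were recomputed under the alternatives. Of these, 1481 stayed past the threshold, 82 fell short of it and 0 changed direction. The setting with no minimum fold change gave 85 of the 1481 and could not lose a call, since it only relaxes the limit. Calls in gray regions and in whole sections are not part of this count. The smaller FT cluster alone accounted for 23 of the 82. With 1 section left out in turn, 68 of the 85 gene calls in the FT comparisons were never lost. Of 2641 values of uncalled genes in the FT comparisons, 105 passed with the fold limit kept, and 118 changed sign, none of them past the threshold. With no minimum fold change, calls among the 33 genes went from 6 to 23 in adult and from 10 to 24 in aged white against gray matter, from 4 to 20 in the aged interaction, from 15 to 26 in aged FT, from 38 to 70 and from 22 to 50 pairs in gray regions at P21 and in aged mice, and from 8 to 21 and from 4 to 17 in whole sections. White matter from core spots gave 10 in adult white against gray matter and 11 in the aged interaction. The larger FT cluster gave 11 and 7 there, and the 10% of spots with the highest FT panel 7 in the aged interaction. The smaller cluster gave 7 in the P21 interaction, 1 in the aged interaction and 9 in aged FT (these cluster choices were made after seeing the data). Clustering each section alone gave 18 pairs in gray regions at P21, against 38 in the main setting. The causes were not tested.

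Leaving out 1 section gave 20 to 22, 6 to 8 and 9 to 11 calls in white against gray matter at P21, in adults and at 28 months, 7 to 12 in the P21 interaction (7 without P21 section 2), 2 to 8 in the aged interaction (2 without aged section 1, 8 without aged section 2), 17 to 19 and 13 to 16 in the FT, 26 to 36 and 20 to 25 pairs in gray regions, and 8 to 8 and 4 to 4 in whole sections. Replicate numbers gave no pairing of sections, and with the replicate block the counts were 18 and 15 in the FT, 38 and 22 in gray regions, and 8 and 4 in whole sections, as without it. Exchanging the numbers of the aged sections, an alternative chosen after seeing the data, gave the same counts. Sums of few UMIs limit Idi1 most, with 22 in the FT of 1 section.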
